A study of Mus musculus with 24 samples.

Results

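The tongue and the skeletal muscle of *Trex1*-/- mice that had not received SN-011 were compared by RNA-Seq, with the 3 libraries titled tongue control set against the 3 titled muscle control, 6 of the 24 libraries of the series. The libraries were chosen by their titles, and all genes of the raw count files entered the comparison. All mice carried a homozygous deletion of *Trex1*, the gene of a 3′ repair exonuclease that degrades cytosolic DNA, on the C57BL/6J background and were 1 month old when injections began. The study describes the controls as injected intraperitoneally with the vehicle of SN-011, whereas the labels call them untreated. The sources do not say which skeletal muscle was taken, how much of the tongue surface went into a piece, or whether libraries that share a number came from the same mouse, so the p-values measure the spread between these samples. Every mouse lacked *Trex1*, so nothing here separates what the deletion does from what belongs to the tissues, and no wild-type tongue or muscle was analysed here.

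The tongue is a muscular organ wrapped in stratified squamous epithelium. Its dorsal surface carries filiform papillae, whose cells make hair-type keratins and cornify, and gustatory papillae with taste buds. Its muscle arises from occipital somites and is patterned by the head mesenchyme, whereas trunk and limb muscle lies in tissue that expresses Hox genes along the body axis. The force and speed of a fibre follow the myosin heavy chain it makes: *Myh7* in slow fibres, *Myh2* in fast oxidative fibres, *Myh1* in intermediate fast fibres and *Myh4* in the fastest glycolytic fibres. Loss of TREX1 leaves DNA in the cytosol, where cGAS makes the messenger cGAMP, STING is switched on and type I interferon and interferon-stimulated genes follow.

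The 6 libraries held 16088960 to 18195127 counts, and 3 counts summed over a group, taken as the smallest level that can be shown, corresponded to 0.0458 CPM in tongue and 0.0744 CPM in muscle. Levels are counts scaled to library size (CPM) after trimmed mean of M-values (TMM) scaling, and a log2 fold change is tongue over muscle. Pearson's r of log2 CPM over 9586 genes was 0.962 to 0.983 between muscle libraries, 0.964 between tongue libraries 2 and 3, but 0.864 and 0.819 between tongue library 1 and these, so tongue library 1 stood apart. Library 1 of each tissue was the *Xist*-positive one, with 13811 *Xist* counts in tongue and 3060 in muscle against at most 5 in the others, so the sexes were spread alike over both groups. *Trex1* had 0 counts in all 6 libraries, but its exons overlap those of *Atrip* on the same strand, so this does not check the genotype. As a check of the tissue labels, *Krt13* and *Krt5*, keratins of the tongue's surface, were abundant in every tongue library and at or next to 0 in every muscle library, and *Acta1*, the actin of skeletal muscle, was abundant in all 6. A list of 10 gastric genes, chosen after their values were seen, summed to 39.5, 2499 and 1976 CPM in tongue libraries 1 to 3 and to 66.9, 1071 and 449 CPM in muscle libraries 1 to 3. Pepsinogen C (*Pgc*) alone was at 3.84, 1192 and 748 CPM in tongue and 14.1, 414 and 163 CPM in muscle. Libraries 2 and 3 of both tissues therefore held RNA counted to stomach genes that libraries 1 held at a small part of that level, and each list below was also read in the pair of libraries numbered 1 alone. There the called members of every list lay on the same side as in the test, except the junction gene *Jup*. Both libraries were part of the test that made the calls, so such agreement, here and below, is no separate check.

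Of 16134 genes tested with edgeR's quasi-likelihood test, 4780 (29.6%) were higher and 3925 (24.3%) lower in tongue at a Benjamini-Hochberg adjusted p under 0.05, together 54%. Against a log2 fold change of 1, 2254 genes (14%) passed as higher and 1354 (8.39%) as lower. Groups did not overlap for 5591 genes with tongue above and for 4827 with tongue below, so a lack of overlap was common. The 10 most abundant genes took 23.8 to 25.6% of the counts in muscle and 10.1 to 10.2% in tongue. With total counts in place of TMM the median log2 fold change of all genes moved from 0.098 to 0.84, and the split became 8671 higher and 1550 lower. Changes below are therefore relative to the TMM scale, and with total counts the lower calls of *Myh1*, *Chrnb1*, *Cs*, *Pdk4*, *Tas1r1*, *Amy1*, *Gbp10*, *Irgm2*, *Cxcl12* and *Cdh5* ended. Without the 285 tested genes that were at least 10 times higher in stomach the counts were 4824 and 3908. In every bulk difference given here, fewer cells of a type and less RNA per cell cannot be told apart.

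**Figure D1:**
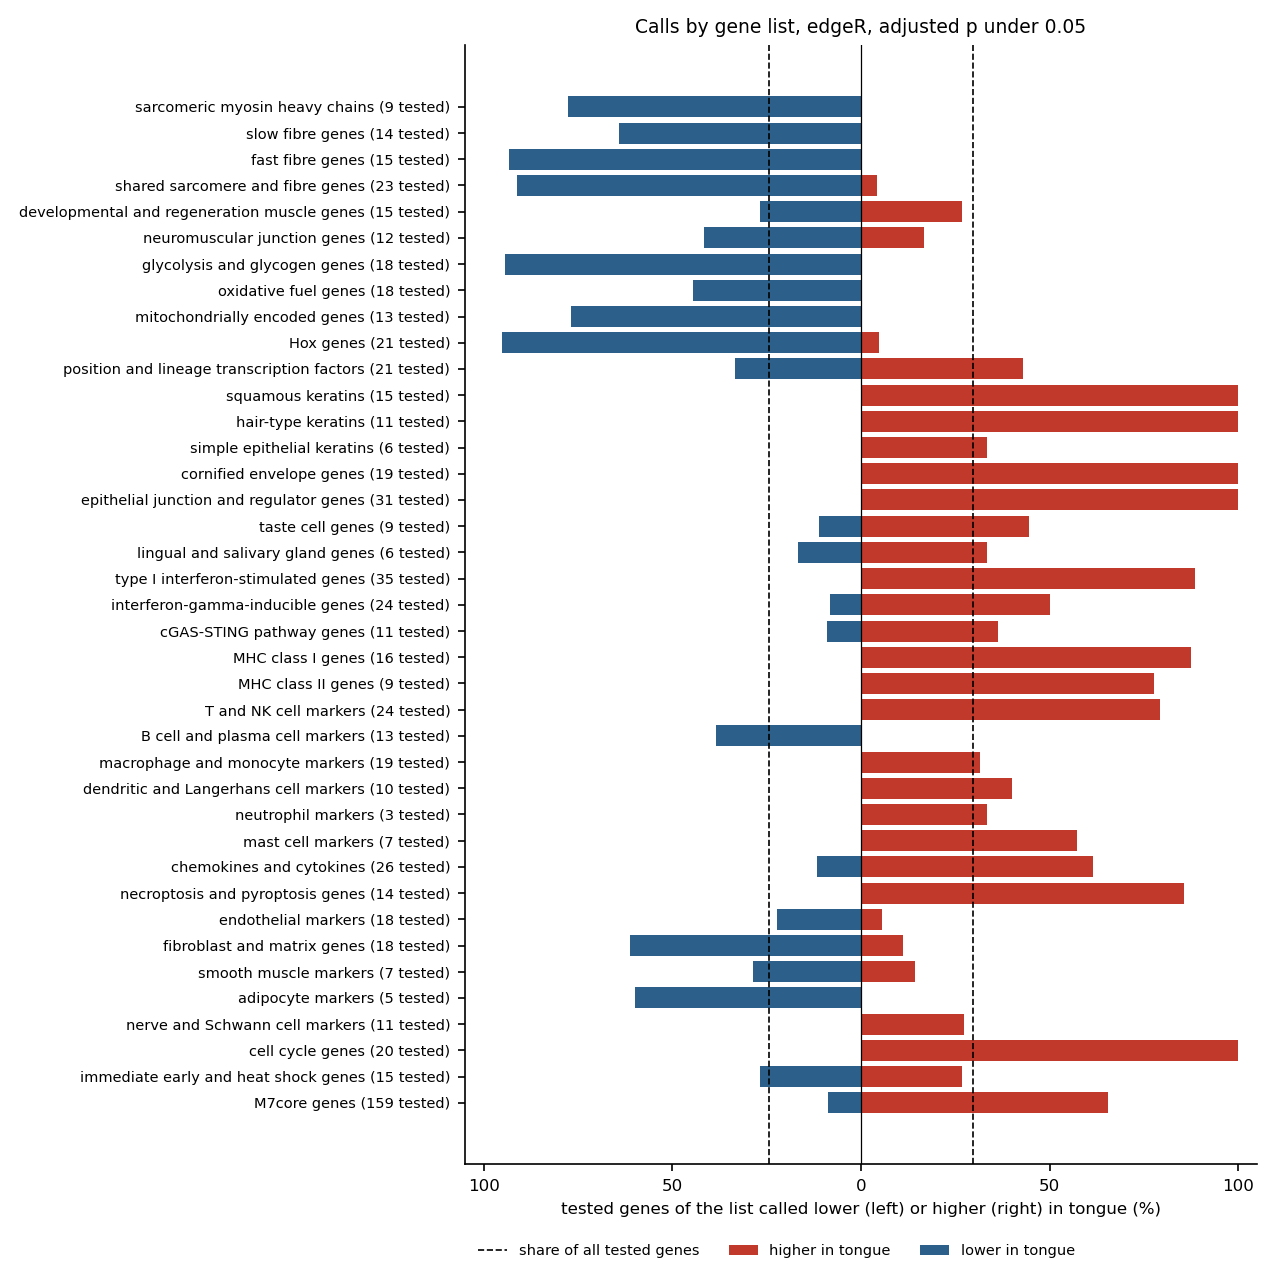
Share of the tested genes of each list called higher (red, right) or lower (blue, left) in tongue control than in muscle control by edgeR at an adjusted p under 0.05, in percent of the tested genes, with 3 libraries a group. The dashed lines mark the shares over all tested genes, 29.6% higher and 24.3% lower. All tested squamous keratins, hair-type keratins, cornified envelope, junction and cell cycle genes were higher, and nearly all fast fibre, glycolysis and Hox genes were lower.

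Fibre genes were far lower in tongue, by factors that differed widely among them. Of 15 fast fibre genes 14 were lower (93.3%, against 24.3% of all genes), with a median log2 fold change of -3.69, against 0.098 over all genes. Of 23 genes shared by all fibres 21 were lower (91.3%, median -3.03), and of 14 slow fibre genes 9 were lower (64.3%, median -2.83) and 0 higher. For the slow fibre genes 1 was higher when the replicate number was a block (libraries of the same number treated as a pair), without tongue library 3, with DESeq2, with the exact test of edgeR and with no filter, and 2 with total counts. With at least 10 counts asked of every library, which removes genes absent from a tissue, 9 slow fibre genes were tested, 4 of them lower and 1 higher (median -0.85). *Acta1*, the skeletal muscle actin, was at 6126, 5379 and 3701 CPM in tongue libraries 1 to 3 and 45620.1, 55280.5 and 52788 CPM in muscle libraries 1 to 3. The muscle libraries were all higher, 10.1-fold in the fit (log2 fold change -3.34, SE 0.271, adjusted p = 0.000132). *Ckm*, the muscle creatine kinase, was lower by 12.2-fold and *Ttn*, the giant spring of the sarcomere, by 9.65-fold. A pair of fast fibre genes were further down in tongue. *Actn3*, the Z-disc α-actinin of fast glycolytic fibres (chr19:4861216-4877909), was at 24.03, 21.2 and 11.96 CPM in tongue and 12757, 13471 and 12906 CPM in muscle, 684-fold lower (log2 fold change -9.42, SE 0.384, adjusted p = 2.99e-05). *Pvalb*, the calcium buffer parvalbumin of fast fibres, named after its values were seen, was at 175, 131 and 113 CPM in tongue and 22534, 23277 and 23999 CPM in muscle (log2 fold change -7.38, SE 0.284, adjusted p = 2.68e-05). The groups did not overlap for these genes, as for 4827 genes with tongue below muscle.

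*Myl3*, a slow and cardiac light chain, was at 0.245, 0.249 and 0 CPM in tongue and 129, 32.5 and 173 CPM in muscle (log2 fold change -9.32, SE 0.955, adjusted p = 0.000313). *Myl2*, the matching regulatory light chain, was at 0.572, 0.0498 and 0.334 CPM in tongue and 149.6, 21.2 and 143 CPM in muscle. Muscle library 2 was the lowest of the 3 muscle libraries for both, and also for *Myh7* and *Ankrd2*, a stretch-responsive ankyrin repeat gene at 37.8, 13.4 and 10.3 CPM in tongue and 203, 67.9 and 109 CPM in muscle. Myoglobin (*Mb*), the oxygen store of oxidative fibres, had overlapping groups at 1360.1, 1674 and 1252 CPM in tongue and 1292, 1092 and 1584 CPM in muscle (log2 fold change 0.11, SE 0.197, adjusted p = 0.652). *Tpm3*, the slow tropomyosin that other cells also make, was at 209, 249 and 194 CPM in tongue and 172, 92.7 and 202 CPM in muscle (adjusted p = 0.184); both were named after their values were seen. *Myom3*, an M-band protein, was the only shared fibre gene called higher, at 66.2, 73.2 and 57.8 CPM in tongue and 41.5, 30.5 and 44.3 CPM in muscle (log2 fold change 0.76, SE 0.183, adjusted p = 0.0109, and 0.0664 in the joint fit of all 24 libraries). *Tnnc2*, the fast troponin C, was under 1 CPM in every library of both tissues, and its exons overlap those of *Ube2c* on the other strand. Exons of *Mb* overlap those of *Gm49540* and *Apol6* on the other strand.

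**Figure D2:**
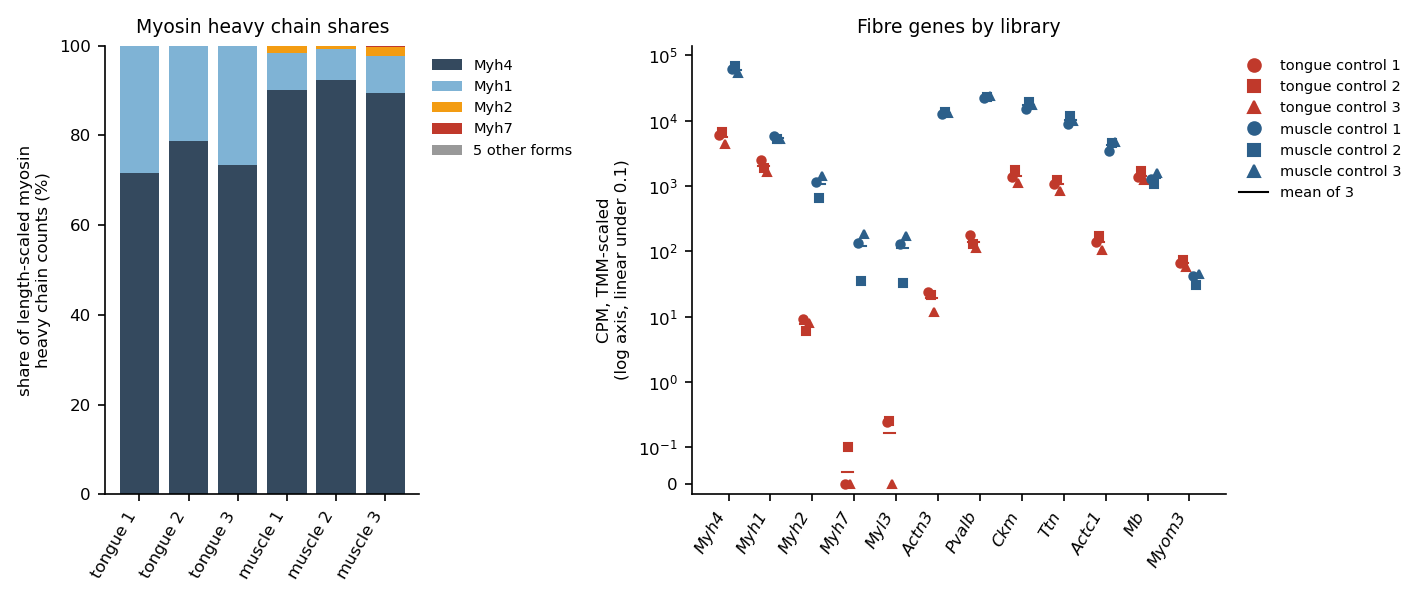
Left, share of each myosin heavy chain in the summed length-scaled counts of the 9 sarcomeric forms, in percent, for each control library. Right, TMM-scaled CPM of fibre genes in each library (log axis, linear under 0.1), with symbols for libraries 1 to 3 and bars at the mean of 3. *Myh1* took 21.1 to 28.1% in tongue and 6.81 to 8.24% in muscle, and *Myh2*, *Myh7*, *Myl3*, *Actn3* and *Pvalb* fell further in tongue than *Myh4*, while *Mb* overlapped.

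Among the myosin heavy chains, whose 9 genes all passed the filter, 7 were lower in tongue (77.8%, against 24.3% of all genes) and *Myh3* and *Myh8*, the embryonic and perinatal forms, were not called. *Myh4* (chr11:67238029-67260446) was at 6079, 6618 and 4359.5 CPM in tongue and 61214, 67849.7 and 53060.5 CPM in muscle (log2 fold change -3.42, SE 0.263, adjusted p = 0.000114). *Myh1* (chr11:67200052-67224575) was at 2518, 1866 and 1652 CPM in tongue and 5868, 5279 and 5158 CPM in muscle, 2.701-fold lower (log2 fold change -1.43, SE 0.205, adjusted p = 0.00123, and 0.245 in the joint fit of all 24 libraries). *Myh2* (chr11:67171027-67197517) was at 9.07, 5.98 and 8.101 CPM in tongue and 1166, 646 and 1419.7 CPM in muscle, 139-fold lower (log2 fold change -7.12, SE 0.396, adjusted p = 5.11e-05). *Myh7* had 0, 2 and 0 counts in tongue libraries 1 to 3 against 136, 35.5 and 187 CPM in muscle. Shares within the family do not depend on how libraries are scaled or on how much muscle a piece held. Per length, *Myh4* made 71.7, 78.8 and 73.4% of the myosin heavy chain counts in tongue and 90.2, 92.4 and 89.5% in muscle, a difference of -16.0 percentage points. *Myh1* made 28.1, 21.1 and 26.4% in tongue and 8.19, 6.81 and 8.24% in muscle, a difference of 17.4 points. *Myh2* made 0.0902, 0.0600 and 0.115% in tongue and 1.45, 0.741 and 2.02% in muscle. The groups did not overlap for these forms, nor for *Myh7*, *Myh3* and *Myh8*, and the exact two-sided permutation p was 0.1 for each of the 6 forms tested, the smallest that 3 against 3 allow, and 0.1 after adjustment over the 6. The same order held in the SN-011 mice, where *Myh1* made 23.8 to 29.0% in tongue and 4.75 to 6.75% in muscle. With the replicate number as a block *Myh3* passed the threshold as lower in CPM (adjusted p = 0.0200) although its share within the family was higher in tongue.

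Genes of fuel use followed the fibres in part. Of 18 glycolysis and glycogen genes 17 were lower in tongue (94.4%, against 24.3% of all genes, median log2 fold change -2.55), among them *Aldoa* at 3258, 3074 and 2867 CPM in tongue and 27753, 27964 and 28192 CPM in muscle, and *Pygm*, the muscle glycogen phosphorylase, 16.5-fold lower. Of 18 oxidative fuel genes 8 were lower (44.4%, against 24.3% of all genes, median -0.74), with *Cs*, citrate synthase, at 301, 457 and 429 CPM in tongue and 815, 868 and 901 CPM in muscle. With total counts 1 of these 18 was lower and 2 higher, so the direction of this list rests on the scaling. *Pdk4*, a brake on glucose oxidation, ranged widely in muscle at 4771, 2661 and 1065 CPM against 647, 839 and 318 CPM in tongue. Of the 13 mitochondrially encoded genes 10 were lower (76.9%, against 24.3% of all genes, median -1.12), 6 without muscle library 3 and 2 with total counts. Neuromuscular junction genes were split, with 5 of 12 lower (41.7%, against 24.3% of all genes) and 2 higher (16.7%, against 29.6%). They were 3 lower without muscle library 2, muscle library 3 or tongue library 3, 0 lower and 4 higher with total counts, and 2 lower and 1 higher in the joint fit of all 24 libraries. *Chrnb1*, a subunit of the acetylcholine receptor, was at 28.8, 24.8 and 20.8 CPM in tongue and 50.9, 49.1 and 55.4 CPM in muscle, whereas *Lrp4*, the agrin receptor, which epithelia also make, was at 50.2, 38.6 and 41.6 CPM in tongue and 4.81, 6.97 and 9.02 CPM in muscle. Of 15 developmental and regeneration genes 4 were higher and 4 lower (26.7% each, against 29.6% and 24.3% of all genes), with 0 higher and 2 lower in the joint fit of all 24 libraries (4 and 2 with total counts, 1 higher without muscle library 2 or 3, and 2 higher and 7 lower without tongue library 1). The fetal light chain *Myl4* (71.5, 23.8 and 21.9 CPM in tongue and 15.8, 9.35 and 11.7 CPM in muscle, not called without muscle library 2 or 3) and the cardiac troponin T *Tnnt2* were higher, neither of them called in the joint fit, and *Actc1*, the cardiac actin of fetal muscle, was 30.5-fold lower at 138, 169 and 106 CPM against 3412, 4547 and 4643 CPM in muscle. *Myf6*, a myogenic factor of mature fibres, was at 14.3, 21.3 and 27.7 CPM in tongue and 125, 94.6 and 112 CPM in muscle.

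Hox genes, which mark position along the body, summed to 8.95 to 20.3 CPM in tongue and 296 to 334 CPM in muscle. Of the 39 Hox genes 21 passed the filter on low counts, which a gene could pass through a single tissue. Of these, 20 were lower in tongue (95.2%, against 24.3% of all genes) and 1 was higher (4.76%, against 29.6%). Since these genes could pass the filter through muscle alone, their counts describe the tissues and are no test of the list. A further 6 Hox genes had 0 counts in all 6 libraries and 12 had too few counts to be tested. Among the tested genes 7 had 0 counts in all 3 tongue libraries. *Hoxc10* (chr15:102966796-102971893) was at 118, 124 and 128 CPM in muscle and 0 counts in tongue, at least 2699.8-fold lower against 3 counts over the group. Each such bound sets the mean of 3 libraries against 3 counts over the other group, and leaves out the spread between libraries. Part of its exons overlap those of *Hoxc5* on the same strand, so counts of these neighbours are uncertain. *Hoxc9* was at 33.9, 28.9 and 33.8 CPM in muscle and 0 counts in tongue, at least 703-fold lower. *Hoxc11* and *Hoxc6* were also at 0 in tongue, at least 302-fold and 259-fold lower. In the A cluster *Hoxa10* was at 22.2, 22.03 and 26.5 CPM in muscle and 0, 1 and 0 counts in tongue, and *Hoxa9* and *Hoxa7* were at 12.3 to 17.5 and 13.46 to 15.9 CPM in muscle. In the D cluster only *Hoxd8* and *Hoxd9* passed the filter, and both had counts in every tongue library. *Hoxd8* was at 4.99, 3.34 and 2.48 CPM in tongue and 18.8, 14.1 and 19.5 CPM in muscle (log2 fold change -2.27, SE 0.298, adjusted p = 0.000874), and *Hoxd9* at 1.63, 0.947 and 0.762 CPM in tongue and 9.84, 10.1 and 9.09 CPM in muscle. *Hoxc13*, which is known from hair follicles and filiform papillae where it drives hair-type keratins, was the single Hox gene higher in tongue, at 1.35, 14.1 and 15.2 CPM and 0 counts in muscle. By its mean it was at least 138-fold higher, with tongue library 1 far under the other tongue libraries. The remaining Hox genes tested lay at up to 10.997 CPM in muscle and up to 0.450 CPM in tongue.

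Lineage factors ran both ways, with 9 of the 21 tested higher (42.9%, against 29.6% of all genes) and 7 lower (33.3%, against 24.3%). *Pitx1* (chr13:55825051-55836192), a homeobox gene of the first pharyngeal arch, oral epithelium and hindlimb, was at 206, 324 and 429 CPM in tongue and 1.04, 1.03 and 0.846 CPM in muscle, 328-fold higher (log2 fold change 8.36, SE 0.371, adjusted p = 3.05e-05). *Tbx1*, which head muscle progenitors need, was at 486, 296 and 276 CPM in tongue and 95.3, 81.3 and 86.9 CPM in muscle. *Isl1*, a factor of the second heart field and of pharyngeal muscle progenitors, was at 27.3, 22.3 and 20.8 CPM in tongue and 0, 0.634 and 0.141 CPM in muscle. *Lbx1*, a factor of migrating somitic progenitors, was detected in both tissues, at 11.9, 16.1 and 15.4 CPM in tongue and 89.6, 105.021 and 138 CPM in muscle (log2 fold change -2.94, SE 0.2199, adjusted p = 0.000104). *Six2*, a homeobox gene, was at 1.06, 0.747 and 1.43 CPM in tongue and 17.4, 35.5 and 21.9 CPM in muscle. Groups did not overlap for any of these, as for 5591 genes with tongue above and 4827 with tongue below.

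**Figure D3:**
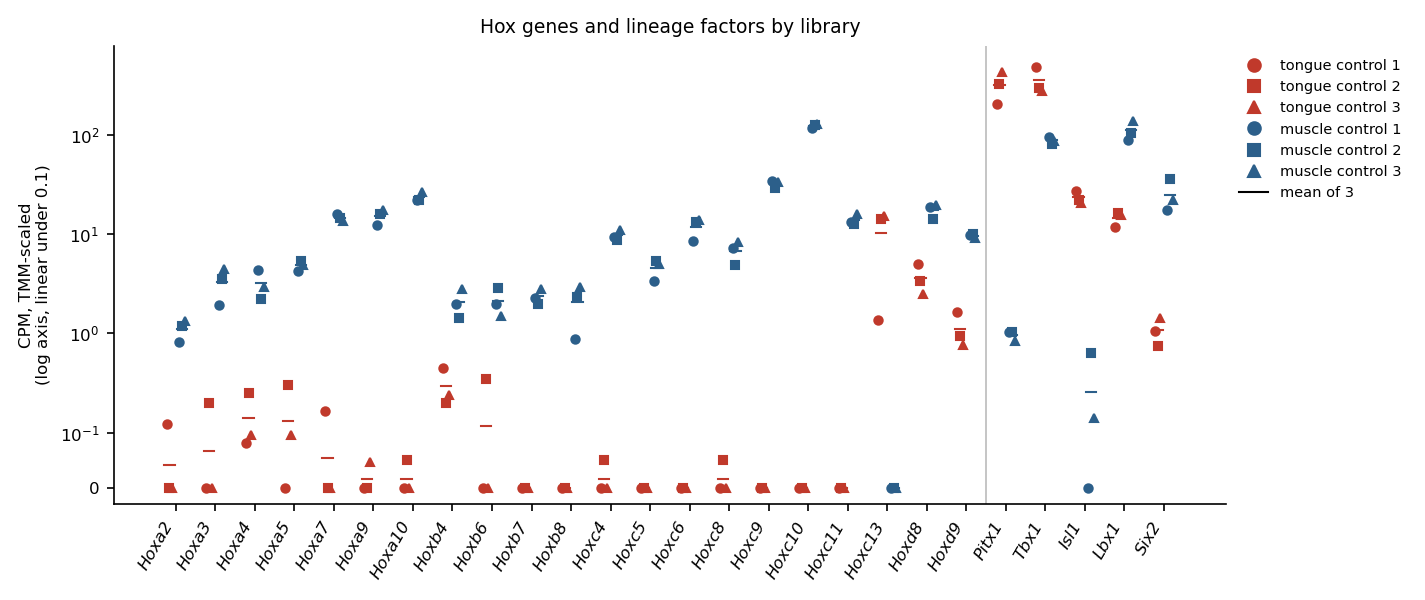
TMM-scaled CPM of the 21 Hox genes that passed the filter (left of the line) and of 5 lineage factors, in each control library (log axis, linear under 0.1), with symbols for libraries 1 to 3 and bars at the mean of 3. Muscle lies above tongue for 20 Hox genes and below it for *Hoxc13*, *Pitx1*, *Tbx1* and *Isl1*.

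Genes of squamous epithelium were higher in tongue throughout. All 15 tested of 17 squamous keratins, all 11 hair-type keratins that passed the filter, all 19 tested of 21 cornified envelope genes and all 31 tested of 32 junction and regulator genes were higher in tongue, against 29.6% of all genes. Of them 8, 10, 6 and 4 had 0 counts in all muscle libraries. Since most of these genes could pass the filter through tongue alone, their counts describe the tissue and are no test of the list. With genes at 0 set to their bound the median log2 fold changes were 14.8, 8.94, 10.3 and 7.63. Of the basal keratins given here *Krt5* was the most even across tongue, at 2537, 2285 and 2965 CPM with 0 counts in muscle, at least 34889.5-fold higher by its mean. *Krt14*, its partner, was at 2540.4, 3288 and 4167 CPM with 1, 0 and 0 counts in the muscle libraries. *Col17a1*, the hemidesmosomal collagen, was at 542, 383 and 475 CPM in tongue and 0.296, 0.634 and 0.775 CPM in muscle. *Krt15*, a keratin of basal and progenitor cells, named after its values were seen, was highest in tongue library 1, at 1306, 351 and 523 CPM.

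The keratins made above the basal layer differed among tongue libraries by far more. *Krt13* (chr11:100117327-100121566) and *Krt4*, the pair of non-cornifying mucosa, were at 2819, 15028 and 23085 CPM and 1144, 8233 and 11304 CPM in tongue libraries 1 to 3, with 0, 0 and 1 and 0 counts in muscle, so *Krt4* was at least 92654-fold higher by its mean. *Krt6a*, *Krt6b* and *Krt16*, keratins of papillae and stressed epithelium, were at 495, 2881 and 3572 CPM (*Krt6a*), 32.9, 1932 and 4473 CPM (*Krt6b*) and 188, 3637 and 5292 CPM (*Krt16*) in tongue and 0 counts in muscle. *Krt6a* and *Krt6b* are near-identical copies, so the split between them is uncertain. The hair-type keratins of filiform papillae followed the same order, with *Krt84* at 44.3, 581 and 684 CPM and *Krt36* at 93.02, 773 and 808 CPM in tongue and at most 0.705 CPM of *Krt36* in muscle. Of the cornified envelope, loricrin (*Lor*) was at 128, 2733 and 5550.2 CPM, repetin (*Rptn*) at 174, 1195 and 1658 CPM and cornifelin (*Cnfn*) at 57.7, 840.1 and 1261 CPM in tongue. Tongue library 1 was the lowest for each of these genes, while it was within the range of the other libraries or close to it for *Krt5*, *Krt14* and *Col17a1*. Of the 15 squamous keratins, 11 hair-type keratins, 19 cornified envelope genes and 31 junction and regulator genes called higher, 15, 11, 19 and 30 were also higher in tongue library 1 than in muscle library 1, libraries that the test had used. The exception was plakoglobin (*Jup*), which muscle also makes, at 260.0, 766 and 977 CPM in tongue and 285, 153 and 204 CPM in muscle, whose call ended without muscle library 2 or 3 or tongue library 2 or 3. Desmoplakin (*Dsp*) was at 374, 1169 and 1525 CPM in tongue and 0, 3.41 and 0.634 CPM in muscle.

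**Figure D4:**
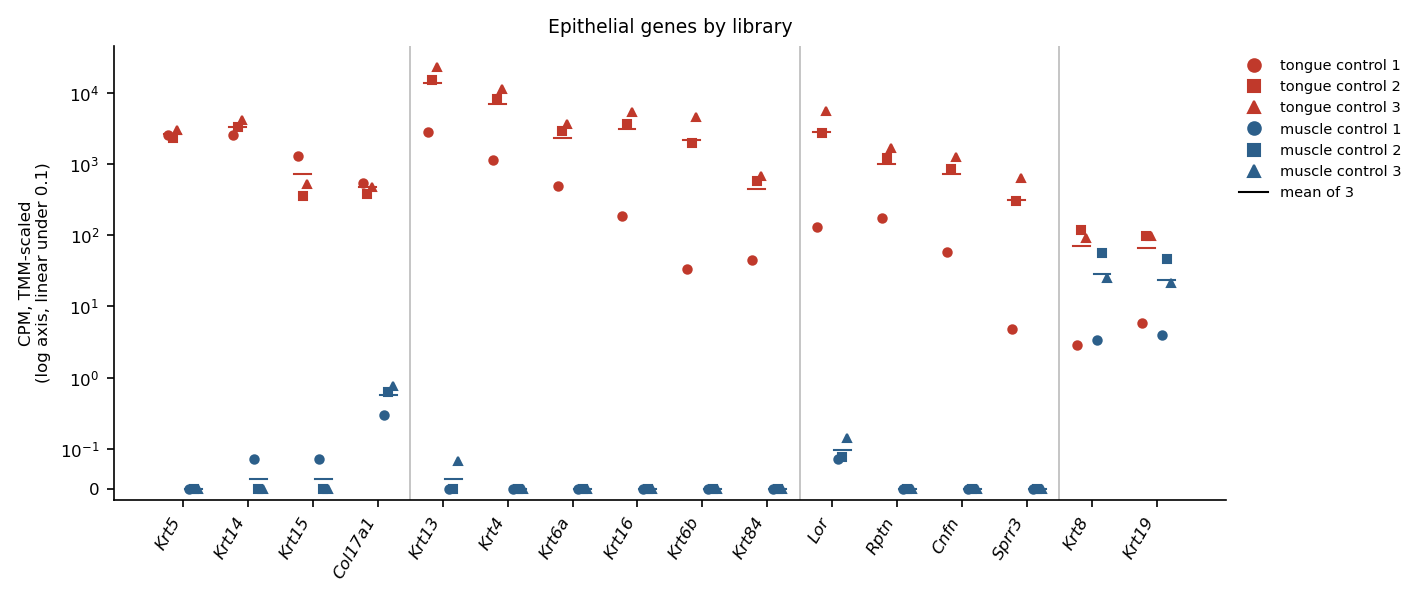
TMM-scaled CPM of epithelial genes in each control library (log axis, linear under 0.1), from left to right basal genes, keratins above the basal layer and hair-type keratins, cornified envelope genes and simple epithelial keratins, with symbols for libraries 1 to 3 and bars at the mean of 3. Tongue library 1 is lowest for the genes of the middle blocks, and *Krt8* and *Krt19* are higher in libraries 2 and 3 of both tissues than in libraries 1.

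Of the 6 simple epithelial keratins, all tested, 2 were higher in tongue (33.3%, against 29.6% of all genes). They were *Krt23* at 42.1, 281 and 284 CPM in tongue and 0, 2.46 and 0.352 CPM in muscle and *Krt7* at 2.21, 2.69 and 4.05 CPM in tongue and 0.3698, 0.951 and 0.141 CPM in muscle. *Krt8* and *Krt19*, named after their values were seen, were at 2.86, 117 and 92.01 CPM (*Krt8*) and 5.76, 96.5 and 96.9 CPM (*Krt19*) in tongue and 3.33, 56.5 and 25.1 CPM (*Krt8*) and 3.99, 45.8 and 21.4 CPM (*Krt19*) in muscle (adjusted p = 0.402 and 0.28). With the replicate number as a block 5 of the 6 were higher, among them *Krt8* (adjusted p = 0.0481) and *Krt19* (adjusted p = 0.0116). These keratins moved with the 10 gastric genes, which summed to 39.5, 2499 and 1976 CPM in tongue and 66.9, 1071 and 449 CPM in muscle, and without the genes high in stomach only 1 simple keratin was still tested. The part of stomach RNA in these values was not tested.

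All 20 cell cycle genes were higher in tongue (against 29.6% of all genes, median log2 fold change 2.92). All 20 were so in the pair of libraries numbered 1, which the test had used. *Mki67*, the proliferation marker, was at 95.8, 94.3 and 124 CPM in tongue and 18.4, 7.77 and 9.87 CPM in muscle (log2 fold change 3.12, SE 0.3399, adjusted p = 0.0004). *Top2a*, the topoisomerase of dividing cells, was at 69.4, 84.6 and 117 CPM in tongue and 8.51, 5.39 and 8.04 CPM in muscle, and *Pcna*, the sliding clamp of replication, at 35.2, 41.5 and 53.1 CPM in tongue and 29.1, 28.9 and 28.6 CPM in muscle, a call that held only without tongue library 1 when single libraries were left out. *Ube2c* was at 41.4, 53.7 and 62.1 CPM in tongue and 8.802, 7.21 and 7.33 CPM in muscle, and it overlaps *Tnnc2* on the other strand.

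Taste and gland genes were sparse. Of 19 taste cell genes 9 passed the filter, 4 higher (44.4%, against 29.6% of all genes) and 1 lower (11.1%, against 24.3%) in tongue. In the joint fit of all 24 libraries 2 were higher and 0 lower, and the 1 lower call ended without any of the muscle libraries or without tongue library 1 or 2. *Trpm5*, *Gnb3*, *Pkd1l3* and *Entpd2* were tested and not called. *Gnat3*, *Gng13* and *Tas1r2* were among the genes under the filter, all of these named after their values were seen. Whether the calls of this list came from taste cells was not tested. *Itpr3*, the calcium channel of taste transduction, was at 80.02, 95.7 and 121 CPM in tongue and 7.77, 10.5 and 10.2 CPM in muscle (log2 fold change 3.38, SE 0.221, adjusted p = 7.16e-05), and *Pou2f3*, which taste receptor cells need, at 2.98, 4.73 and 6.29 CPM in tongue and 0, 0.317 and 0 CPM in muscle. The sweet and umami receptor subunit *Tas1r3* was at 2.003, 2.39 and 2.53 CPM in tongue and 0.7396, 1.19 and 0.846 CPM in muscle (not called without muscle library 1 or 3 or tongue library 2 or 3), and its partner *Tas1r1* was called lower, at 0.613, 0.498 and 1.24 CPM in tongue and 1.997, 1.66 and 2.397 CPM in muscle. Of 20 lingual and salivary gland genes 6 passed the filter, 2 higher (33.3%, against 29.6% of all genes) and 1 lower (16.7%, against 24.3%), and 7 had 0 counts in all 6 libraries. *Lyz1* was at 17.00, 7.52 and 7.34 CPM in tongue and 2.74, 4.201 and 2.75 CPM in muscle, and *Amy1*, whose exons overlap those of *Rnpc3*, was lower in tongue at 17.3, 11.5 and 6.86 CPM against 42.3, 27.6 and 27.1 CPM in muscle. With the replicate number as a block 4 gland genes were higher, without tongue library 1 there were 5, and without any other single library or without the genes high in stomach there was 1.

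Interferon-stimulated genes were higher in tongue. Of 35 type I interferon-stimulated genes, all of which passed the filter, 31 (88.6%, against 29.6% of all genes) were higher and 0 lower, with a median log2 fold change of 1.53 against 0.098 over all genes. All 31 were also above muscle in the pair of libraries numbered 1, which the test had used, and 34 were higher with total counts. *Isg15*, a ubiquitin-like modifier (chr4:156199424-156200818), was at 119, 271 and 447 CPM in tongue and 43.7, 43.4 and 59.1 CPM in muscle, 5.72-fold higher (log2 fold change 2.52, SE 0.456, adjusted p = 0.00331). *Oasl2*, a 2′-5′ oligoadenylate synthetase-like gene, was at 296, 478 and 449.9 CPM in tongue and 48.00, 61.9 and 84.5 CPM in muscle, 6.297-fold higher (adjusted p = 0.000349). *Irf7*, the amplifier of the interferon response, was at 489, 604 and 518 CPM in tongue and 217, 193 and 279.6 CPM in muscle, and *Bst2*, the tether of budding viruses, at 297, 404 and 431 CPM in tongue and 156, 136 and 191 CPM in muscle. The 4 genes not called, 3 of them named after their values were seen, were *Ifit3* (288, 287 and 191 CPM in tongue and 188, 198 and 241 CPM in muscle, log2 fold change 0.29, SE 0.201, adjusted p = 0.259), *Ifit3b* (log2 fold change -0.28), *Usp18*, the interferon receptor's brake (0.07), and *Parp14* (0.61). With the replicate number as a block *Parp14* passed (adjusted p = 0.0128). *Ifit3* and *Ifit3b* are close copies, so the split of their counts is uncertain.

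The RefSeq promoters (GRCm38.p6) of these genes were searched over the 250 bases before the start for an interferon response element written as GAAANNGAAA, on both strands. Of 35 type I interferon-stimulated genes 24 had a promoter in the table, and 10 (41.7%, exact 95% confidence interval 22.1 to 63.4%) held the letters, against 936 of 27025 promoters (3.46%). The interferon-γ-inducible genes held them in 11 of 15 (73.3%), the MHC class I genes in 3 of 14 and the squamous keratins in 0 of 9. *Isg15* and *Cxcl10* are shown as interferon-inducible genes called higher in tongue and *Ifit3* as one that holds the element and was not called, with the matches in capitals.
Isg15 (chr4:156200819-156201068, minus strand): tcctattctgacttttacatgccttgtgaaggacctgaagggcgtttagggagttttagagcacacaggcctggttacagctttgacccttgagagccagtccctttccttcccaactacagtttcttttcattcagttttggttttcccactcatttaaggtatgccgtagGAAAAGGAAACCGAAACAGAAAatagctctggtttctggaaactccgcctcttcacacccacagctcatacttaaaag
Cxcl10 (chr5:92348890-92349139, minus strand): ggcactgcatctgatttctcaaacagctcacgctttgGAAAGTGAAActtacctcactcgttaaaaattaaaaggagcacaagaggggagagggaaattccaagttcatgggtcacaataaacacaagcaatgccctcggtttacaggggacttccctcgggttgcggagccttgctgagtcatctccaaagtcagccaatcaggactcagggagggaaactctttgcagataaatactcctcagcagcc
Ifit3 (chr19:34583279-34583528, plus strand): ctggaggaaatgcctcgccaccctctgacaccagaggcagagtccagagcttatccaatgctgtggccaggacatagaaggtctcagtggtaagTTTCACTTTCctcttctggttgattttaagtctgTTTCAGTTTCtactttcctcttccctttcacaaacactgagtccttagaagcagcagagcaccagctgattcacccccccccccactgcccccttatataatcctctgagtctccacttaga
The 3 overlapping matches of *Isg15* begin 78, 72 and 66 bases before the start, that of *Cxcl10* 213 bases before it, and those of *Ifit3*, on the other strand, 156 and 122 bases before it. *Oasl2* and *Irf7*, both called higher, hold no match in this window.

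Of 24 interferon-γ-inducible genes 12 were higher (50%, against 29.6% of all genes) and 2 lower (8.33%, against 24.3%). With total counts they were 19 and 0, where 8671 of all 16134 genes were higher and 1550 lower. Without a single library they ran from 7 higher, without muscle library 1, to 14, without tongue library 1, and up to 5 were lower, without tongue library 2. *Cxcl10*, the chemokine that draws CXCR3+ T cells, was at 74.4, 359.6 and 170.2 CPM in tongue and 21.5, 20.5 and 29.5 CPM in muscle, 8.44-fold higher (log2 fold change 3.08, SE 0.549, adjusted p = 0.00309), and *Cxcl9*, its close relative, at 143, 500.0 and 178 CPM in tongue and 68.3, 60.0005 and 87.6 CPM in muscle. Tongue library 2 was the highest for both. Exons of *Cxcl10* overlap those of *Art3* on the other strand. *Gbp2* and *Gbp3*, guanylate-binding proteins that attack intracellular pathogens, were at 170.4, 420.0 and 183 CPM (*Gbp2*) and 212, 301 and 225 CPM (*Gbp3*) in tongue and 57.5, 48.7 and 66.1 CPM (*Gbp2*) and 99.5, 92.1 and 120.5 CPM (*Gbp3*) in muscle. In the other direction *Irgm2*, an immunity-related GTPase whose exons overlap those of *Igtp*, was at 113, 268 and 138 CPM in tongue and 301, 361 and 308 CPM in muscle (log2 fold change -0.90, SE 0.3198, adjusted p = 0.0473), and *Gbp10* at 24.8, 38.8 and 24.97 CPM in tongue and 39.5, 55.6 and 53.9 CPM in muscle (adjusted p = 0.0304). Both lower calls were lost with total counts and without muscle library 2 or 3 or tongue library 1 or 3, and that of *Irgm2* also without muscle library 1.

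Of 11 tested cGAS-STING pathway genes 4 were higher (36.4%, against 29.6% of all genes) and 1 lower (9.09%, against 24.3%) in tongue, and 9 and 1 with total counts. *Cgas*, the DNA sensor, was at 4.33, 6.53 and 5.96 CPM in tongue and 0.518, 1.82 and 2.19 CPM in muscle (log2 fold change 1.89, SE 0.507, adjusted p = 0.017), a call that ended without tongue library 2. *Sting1*, listed under its older symbol *Tmem173*, was at 11.3, 13.3 and 9.24 CPM in tongue and 6.06, 8.56 and 8.04 CPM in muscle (log2 fold change 0.58, SE 0.228, adjusted p = 0.0656) and did not pass the threshold. *Samhd1*, a triphosphohydrolase that depletes dNTPs, was at 235, 477 and 409 CPM in tongue and 124, 125 and 131 CPM in muscle, *Ikbke*, a kinase of the pathway, at 39.03, 48.04 and 45.8 CPM in tongue and 9.62, 6.18 and 6.77 CPM in muscle, and *Irf3*, the factor STING activates through TBK1, at 73.2, 51.7 and 63.5 CPM in tongue and 36.5, 34.9 and 30.7 CPM in muscle. *Jak1*, a kinase of the interferon receptor, was lower in tongue at 57.5, 69.7 and 58.5 CPM against 176, 159.7 and 178 CPM in muscle (log2 fold change -1.47, SE 0.135, adjusted p = 0.000206). Of the 159 genes of M7core, the signature the study defined on other samples for activity of this pathway, all passed the filter, 104 were higher (65.4%, against 29.6% of all genes) and 14 lower (131 and 5 with total counts, 97 and 9 without muscle library 3), with a median log2 fold change of 1.16. *Ly6e* was at 773, 1224 and 1021 CPM in tongue and 293, 277 and 359 CPM in muscle, and of the lower ones *Clic5*, a chloride intracellular channel gene, was at 32.1, 25.02 and 20.7 CPM in tongue and 168, 208 and 207 CPM in muscle.

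**Figure D5:**
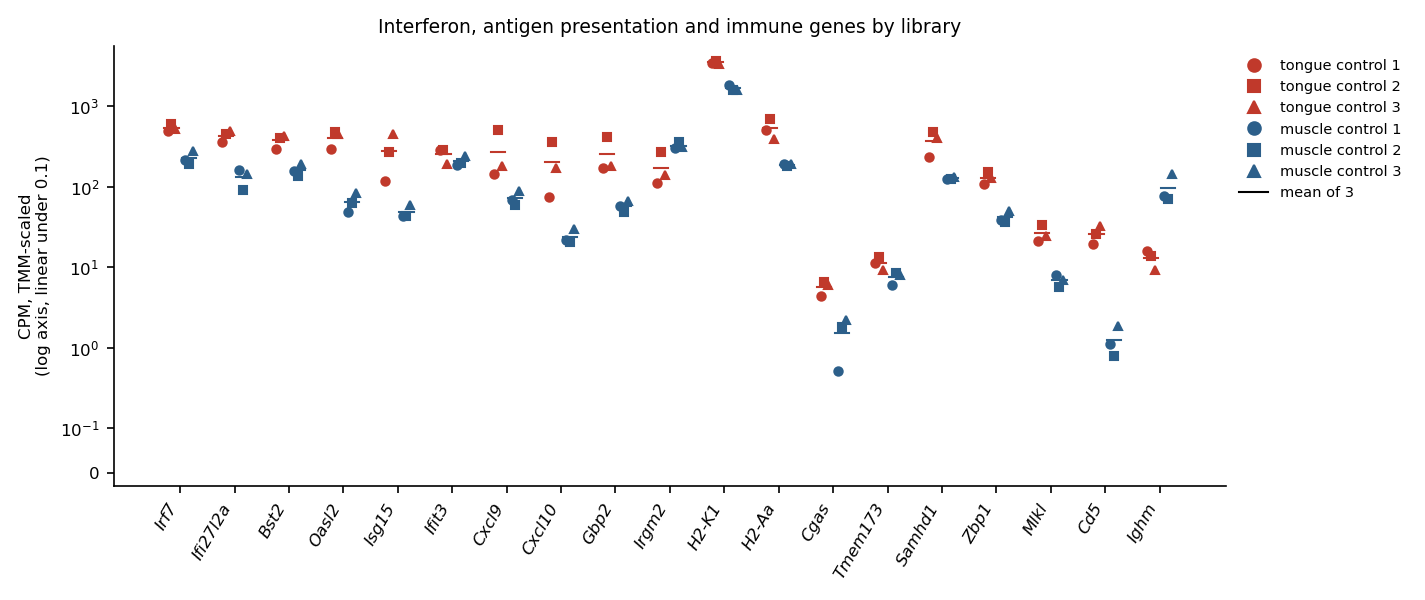
TMM-scaled CPM of interferon-inducible, antigen presentation, cGAS-STING, cell death and immune cell genes in each control library (log axis, linear under 0.1), with symbols for libraries 1 to 3 and bars at the mean of 3. Tongue lies above muscle for most, the groups overlap for *Ifit3*, and *Irgm2* and *Ighm* lie below.

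Antigen presentation genes were higher as well. Of 16 MHC class I genes 14 were higher (87.5%, against 29.6% of all genes) and 0 lower (median log2 fold change 1.503). *H2-K1*, a classical heavy chain, was at 3495, 3654 and 3394 CPM in tongue and 1835, 1611 and 1596 CPM in muscle (log2 fold change 1.06, SE 0.148, adjusted p = 0.00109), and *H2-T22*, a non-classical one, at 485, 749 and 819 CPM in tongue and 205, 175 and 230.4 CPM in muscle. *B2m*, the shared light chain, named after its values were seen, was at 1297, 2016 and 1867 CPM in tongue and 1280.4, 1055 and 1197 CPM in muscle (adjusted p = 0.0531) and was not called. Heavy chain genes share long stretches of sequence, so counts could be split among them. Of 9 tested MHC class II genes 7 were higher (77.8%, against 29.6% of all genes, median 0.91), and 4 of them without tongue library 2 or without muscle library 3. *H2-Aa* and *Cd74*, the α chain and the invariant chain, were at 505, 701 and 393 CPM (*H2-Aa*) and 1120.5, 1631 and 858 CPM (*Cd74*) in tongue and 191, 182 and 192 CPM (*H2-Aa*) and 598, 608 and 581 CPM (*Cd74*) in muscle.

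Cell death genes were also higher, 12 of 14 (85.7%, against 29.6% of all genes) with 0 lower (median 1.69). *Zbp1*, the nucleic acid sensor that triggers necroptosis (chr2:173206612-173218923), was at 109, 154 and 127 CPM in tongue and 39.1, 36.5 and 49.7 CPM in muscle (log2 fold change 1.64, SE 0.189, adjusted p = 0.000502). *Mlkl*, which breaks the membrane in necroptosis, was at 21.1, 33.3 and 24.6 CPM in tongue and 7.99, 5.71 and 6.84 CPM in muscle (log2 fold change 1.94, SE 0.234, adjusted p = 0.000609). *Gsdma* and *Gsdmc*, pore-forming gasdermins of epithelium, were at 19.8, 111 and 205 CPM (*Gsdma*) and 27.2, 82.5 and 159 CPM (*Gsdmc*) in tongue and at most 0.555 CPM and 0 counts in muscle, and they were lowest in tongue library 1, as the suprabasal keratins were. *Pycard*, the inflammasome adaptor ASC, was at 35.1, 87.6 and 92.8 CPM in tongue and 3.62, 4.28 and 4.09 CPM in muscle.

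The immune cell lists did not move alike. Of 24 tested T and NK cell markers 19 were higher in tongue and 0 lower (79.2% higher, against 29.6% of all genes, median 1.64), the list summing to 175 to 311 CPM in tongue and 75.9 to 79.1 CPM in muscle. The 5 not called, named after their values were seen, were *Cd3e*, *Cd247*, *Gzma*, *Gzmk* and *Cxcr3*. *Cd5*, a T cell receptor regulator, was at 19.5, 26.2 and 32.4 CPM in tongue and 1.11, 0.793 and 1.83 CPM in muscle (log2 fold change 4.37, SE 0.357, adjusted p = 0.000136). *Trbc2*, a T cell receptor constant chain, was at 11.4, 23.97 and 18.6 CPM in tongue and 6.51, 2.54 and 4.58 CPM in muscle, and *Gzmb*, granzyme B, at 16.1, 24.8 and 11.8 CPM in tongue and 3.77, 5.55 and 7.47 CPM in muscle. B cell and plasma cell markers went the other way, with 5 of 13 lower and 0 higher (38.5% lower, against 24.3% of all genes), and 3 lower with total counts and without muscle library 1, muscle library 2 or tongue library 3. Without the genes high in stomach 7 of these markers were tested and 2 were lower. *Ighm*, the immunoglobulin μ heavy chain, was at 16.1, 13.7 and 9.29 CPM in tongue and 75.8, 71.3 and 143 CPM in muscle (log2 fold change -2.89, SE 0.344, adjusted p = 0.000576), and *Igkc*, the κ light chain, at 3.39, 11.2 and 4.57 CPM in tongue and 28.8, 31.8 and 19.5 CPM in muscle. *Jchain*, which joins IgM and IgA in plasma cells, was at 0.9400, 2.64 and 0.619 CPM in tongue and 5.62, 10.9 and 6.06 CPM in muscle.

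The share of macrophage and monocyte markers called was near that of all genes. Of 19 macrophage and monocyte markers 6 were higher (31.6%, against 29.6%), with 13 higher with total counts, 10 without tongue library 3, 3 without muscle library 2 and 3 in the joint fit of all 24 libraries. Without both libraries numbered 1 they were 3 higher and 2 lower, and without tongue library 1 they were 4 and 3. *Csf1r*, the receptor of a macrophage growth factor, was at 76.3, 69.02 and 44.7 CPM in tongue and 39.1, 36.9 and 42.4 CPM in muscle (not called when any single library other than tongue library 3 was left out), and *Ly6c2*, of inflammatory monocytes, at 45.7, 89.2 and 36.7 CPM in tongue and 11.6, 10.7 and 16.8 CPM in muscle. Of 10 tested dendritic and Langerhans cell markers 4 were higher (40%, against 29.6% of all genes), with 8 higher with total counts, and 2 with the replicate number as a block, in the joint fit and when any single library other than muscle library 1 or tongue library 1 was left out. Without tongue library 1 they were 4 higher and 2 lower. *Cd207*, langerin, was at 1.43, 2.09 and 3.43 CPM in tongue and 0 counts in muscle, at least 31.2-fold higher, and *Itgax*, CD11c, at 21.5, 34.03 and 14.96 CPM in tongue and 5.33, 3.73 and 4.58 CPM in muscle. Of 7 tested mast cell markers 4 were higher (57.1%, against 29.6% of all genes, 2 without muscle library 2, 1 without muscle library 3), with *Hdc*, histidine decarboxylase, at 14.5, 14.1 and 8.77 CPM in tongue and 4.51, 4.28 and 3.52 CPM in muscle and the protease *Mcpt4* highest in tongue library 1, at 12.8, 2.69 and 1.72 CPM in tongue and 1.18, 0.317 and 0.282 CPM in muscle (not called without muscle library 2 or 3). Neutrophil markers were nearly absent: 3 of 12 passed the filter, and *S100a8*, the 1 called higher, was high in tongue library 3 alone, at 0.899, 1.196 and 125 CPM in tongue and 0.814, 0.159 and 0.846 CPM in muscle (adjusted p = 0.0446). Epithelium also makes it, its call ended without any of the muscle libraries, and it was also lost without tongue library 3.

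Of 26 tested chemokines and cytokines 16 were higher (61.5%, against 29.6% of all genes) and 3 lower (11.5%, against 24.3%). There was 1 lower with total counts, 10 were higher and 2 lower without tongue library 2, and 13 and 1 without muscle library 3. *Cxcl16* was at 71.4, 119 and 60.9 CPM in tongue and 13.8, 14.3 and 18.7 CPM in muscle (log2 fold change 2.42, SE 0.287, adjusted p = 0.00056), and *Ccl5*, which T cells secrete, at 59.5, 52.1 and 25.6 CPM in tongue and 23.7, 12.1 and 22.3 CPM in muscle (not called when any single library other than tongue library 3 was left out). The lower ones were *Cxcl14* (17.2, 35.1 and 44.9 CPM in tongue and 121, 95.8 and 102 CPM in muscle), *Cxcl12*, which stroma makes (43.3, 23.8 and 32.5 CPM in tongue and 60.4, 55.96 and 69.5 CPM in muscle), and *Ccl27a* (7.56, 5.73 and 5.43 CPM in tongue and 9.17, 9.67 and 11.5 CPM in muscle), the last of which turned direction with total counts and was not called when any single library other than tongue library 1 was left out.

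Of 18 fibroblast and matrix genes 11 were lower in tongue (61.1%, against 24.3% of all genes) and 2 higher (median log2 fold change -1.56), and the other stromal and nerve lists did not follow them. *Col1a1*, a chain of type I collagen, was at 69.5, 44.1 and 37.8 CPM in tongue and 409, 699 and 615 CPM in muscle (log2 fold change -3.51, SE 0.316, adjusted p = 0.000189), and *Col3a1* and *Sparc*, further matrix genes, were 5.79-fold and 4.07-fold lower. *Tnc*, tenascin C, was higher in tongue, at 29.3, 38.3 and 31.3 CPM in tongue and 9.98, 12.1 and 9.09 CPM in muscle. Of 18 endothelial markers 4 were lower (22.2%, under the 24.3% of all genes) and 1 higher, with 8 lower with the replicate number as a block, 12 without tongue library 1, 1 without muscle library 3, 2 without any other library and 0 with total counts. *Cdh5*, VE-cadherin, was at 77.4, 28.95 and 29.5 CPM in tongue and 121, 115 and 128 CPM in muscle, with tongue library 1 above the other tongue libraries, called lower only without tongue library 1 when single libraries were left out, and *Icam1*, an adhesion molecule that interferons and cytokines induce, was higher in tongue at 30.2, 44.1 and 34.7 CPM against 12.8, 9.59 and 12.4 CPM in muscle. Of 7 tested smooth muscle markers 2 were lower (28.6%, against 24.3%) and 1 higher (3 higher and 1 lower with total counts, 0 higher in the joint fit of all 24 libraries and without any muscle library or tongue library 2, and 1 lower without muscle library 3 or tongue library 2). Of 5 tested adipocyte markers 3 were lower (5 with the replicate number as a block, and 5 to 7 of 8 tested without muscle library 2 or a tongue library), and the muscle libraries differed widely: *Adipoq*, adiponectin, was at 109, 1.902 and 28.2 CPM in muscle and at most 0.0953 CPM in tongue. Muscle library 1 was the highest in adipocyte genes. Of 11 tested nerve and Schwann cell markers 3 were higher (27.3%, against 29.6% of all genes, 5 without tongue library 3 and 7 with total counts) and 0 lower, among them *Tubb3*, a neuronal tubulin, at 8.17, 26.5 and 40.1 CPM in tongue and 0.148, 0.555 and 0.282 CPM in muscle. Immediate early and heat shock genes, which handling of tissue can raise, were split 4 higher and 4 lower of 15 (26.7% each, against 29.6% and 24.3% of all genes, 7 lower with the replicate number as a block, 2 lower without muscle library 2 or 3, 8 higher and 1 lower with total counts): *Hspa1b*, an inducible chaperone, was at 23.2, 46.5 and 37.5 CPM in tongue and 1.41, 1.98 and 2.61 CPM in muscle, and *Nr4a1* at 26.4, 54.7 and 10.3 CPM in tongue and 263, 299.6 and 123 CPM in muscle.

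The same tissue contrast was fitted in the 3 tongue and 3 muscle libraries of *Trex1*-/- mice given SN-011, a STING antagonist, which the comparison above did not use. The labels give its dose as 5 mg/kg, and the methods of the study give another dose and schedule. There 3020 of 15849 genes (19.1%) were higher and 3211 (20.3%) lower in tongue. The block gave 1547 higher and 2271 lower, and without muscle SN-011 library 2 there were 6102 and 5188. Fewer genes passed without muscle SN-011 library 1 (1929 and 2003) or 3 (2039 and 1967), and leaving out tongue SN-011 library 1, 2 or 3 in turn gave 1743, 1765 and 1870 higher. Of the control calls tested in both, 56.4% of those higher and 67.2% of those lower were called in the same direction with SN-011, and 97.0% and 96.0% had the same sign. Muscle SN-011 library 2 held counts on 11546 genes, against 20858 and 19798 in the other muscle SN-011 libraries, and without it 90.2% and 89.7% of the control calls were called in the same direction. The difference of the contrast between treatments was tested for 17235 genes, and 2 (0.0116%) passed, with 1443 at an unadjusted p under 0.05. *B4galt1*, a galactosyltransferase, and *Cdkal1*, a tRNA-modifying enzyme, were those 2. In the SN-011 libraries *Myh4* had a log2 fold change of -3.45 and *Isg15* of 2.81, of the same sign as in the controls.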

How the data were processed

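PolyA+ RNA of the tongue and skeletal muscle of *Trex1*-/- mice was sequenced as paired reads by the authors. The study's methods give adapter trimming with Trimmomatic, alignment with hisat2 at default settings and counting of uniquely mapped pairs with featureCounts, whereas the submitters' processing notes name HTSeq beside HISAT2 and the mm10 build, so the counter and its handling of overlapping genes and strand are uncertain. Exons of further named genes overlap those of other genes on the other strand, and not all such overlaps are given here. The deposited values are raw counts per Ensembl gene for each library, not normalized and not pooled. Tool versions and the annotation release are not given in the sources used here, and 54495 of 54532 gene identifiers were named through the GENCODE M21 annotation (GRCm38).

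The 3 tongue control and 3 muscle control libraries were grouped by their titles. Genes were kept with filterByExpr (minimum count 10, minimum total 15), scaled by TMM and tested with edgeR 4.0.16 (glmQLFit and glmQLFTest, R 4.3.3) with Benjamini-Hochberg adjustment and a threshold of 0.05. A stricter test against a log2 fold change of 1 used glmTreat. CPM values were scaled by TMM within the 6 libraries, and the fitted fold changes used a prior count of 0.125. The floor of 3 counts covers counting error only, and the exact intervals on promoter shares treat the genes of a set as independent. Myosin shares used counts divided by summed exon length and an exact two-sided permutation test with 20 arrangements. The fits were tested on simulated counts with known changes before use. That simulation changed few genes, equally up and down, with the same dispersion for every gene. It therefore cannot show how the fits do under the scaling shift or the uneven tongue libraries of these data. Alternatives were DESeq2 1.42.0, its size factors within edgeR, total counts, edgeR's exact test, other filters, the joint fit of 24 libraries, the 10 most abundant genes removed, each library left out, both libraries numbered 1 left out and the replicate number as a block. Leaving out genes at least 10 times higher in stomach control, and reading the pair of libraries numbered 1 alone, were chosen after seeing the data. Deviations of same-numbered tongue and muscle libraries from their group means correlated at r = 0.353, 0.378 and 0.175 for numbers 1, 2 and 3 over 9586 genes of at least 10 CPM, and those of different numbers at -0.382 to 0.125. Deviations from a mean of 3 sum to 0, which pushes the values of different numbers down. Libraries 1 of both tissues also shared *Xist* and low gastric counts, so these values cannot show that a number stands for 1 mouse. The main test did not pair the libraries, and the number entered only as a block in an alternative.

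The comparison and the 39 gene lists were chosen with earlier results of these data known. Genes were named by a rule: all sarcomeric myosin heavy chain genes and all Hox genes that passed the filter, in each list up to 4 called genes of highest mean CPM in the direction with most calls and up to 3 of smallest p in the other, the 10 largest changes in each direction with no overlap and a mean of at least 10 CPM, and *Trex1*, *Sting1*, *Cgas*, *Cxcl10*, *Mlkl*, *Zbp1*, *Isg15*, *Ifit3*, *Xist* and *Ddx3y*. Not every gene the rule allows is printed, some are not reported here, and others are said to have been named after their values were seen. Promoters came from RefSeq (GRCm38.p6), and exact 95% intervals are Clopper-Pearson. Libraries of stomach and heart entered only the joint fit, the gastric gene check and, for stomach control, the choice of genes high in stomach.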

Additional observations from a re-analysis of the deposited data

Results flagged for a closer look

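The tongue over muscle difference changed between control and SN-011 mice in 2 of 17235 genes by edgeR's interaction test. For *B4galt1*, a galactosyltransferase gene, the log2 fold change was lower with SN-011 by a difference of -1.41 (SE 0.161, adjusted p = 0.0338). Its level was 69.9, 72.8 and 66.0 CPM in tongue control, 79.6, 83.7 and 72.0 CPM in muscle control, 68.8, 63.4 and 65.8 CPM in tongue SN-011 and 215, 161 and 189 CPM in muscle SN-011, so the muscle SN-011 libraries stood above all others. For *Cdkal1*, a tRNA-modifying enzyme gene, the difference was -2.26 (SE 0.270, adjusted p = 0.0338). Its level was 8.58, 8.90 and 6.81 CPM in tongue control, 22.5, 19.6 and 24.9 CPM in muscle control, 5.50, 6.25 and 8.23 CPM in tongue SN-011 and 94.2, 76.4 and 79.6 CPM in muscle SN-011.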

How the results depend on the processing

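The counts of genes higher and lower in tongue stayed within 1.5 times 4780 and 3925 under every setting but a pair of them: the test against a log2 fold change of 1 gave 2254 and 1354, and total counts in place of TMM gave 8671 and 1550. Leaving out each library in turn gave 3874 to 5141 higher and 3121 to 4395 lower, and the replicate number as a block gave 4861 and 4123. In the SN-011 libraries the block gave 1547 higher and 2271 lower, and leaving out each library gave 1743 to 6102 higher and 1967 to 5188 lower, the top of both ranges without muscle SN-011 library 2. The differences in myosin heavy chain share kept their sign with raw counts in place of length-scaled ones, with the 4 adult forms as the denominator and without each library, and as 3 pairs the exact sign-flip test cannot go below p = 0.25. The interferon response element shortened to GAAANNGAA was held by 8.18% of all promoters. Of 196 named genes called, 140 kept direction and call under every alternative but the fold-change test. Total counts ended 24 of these calls, and turned 5 more: *Ufsp1* (0.0305), *Hadha* (0.0323), *Hadhb* (0.12), *Ccl27a* (0.0639) and *Egr1* (0.0542). Of genes not called, total counts turned *Myh8* (0.14), *Tnnc2* (0.0260) and *Ifit3b* (0.47), the joint fit turned *Usp18* (-0.0024), and leaving out a library turned *Mb* (range -0.0165 to 0.263, below 0 without muscle library 2 or tongue library 2) and *Usp18* (range -0.0639 to 0.271, below 0 without tongue library 2 or 3), all as log2 fold changes. The block ended the calls of *Runx1*, *Ccr7*, *Siglech* and *Itm2b* (adjusted p = 0.0816, 0.0573, 0.0641 and 0.0720) and brought past the threshold *Myh3*, *Krt8*, *Krt19*, *Parp14* and *Ddx3y*. Why the values moved was not tested, beyond the fewer samples when libraries are left out. Genes under the filter, among them most taste, gland and neutrophil genes, were not detectable as different at this depth.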
